A study of Mus musculus with 6 samples.

Results

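The Cyp3a genes code for cytochromes P450 of the CYP3A subfamily, and 8 of them were taken by symbol from the 40481 genes of the deposited count table, namely Cyp3a11, Cyp3a13, Cyp3a16, Cyp3a25, Cyp3a41a, Cyp3a41b, Cyp3a44 and Cyp3a59. A ninth gene with such a symbol, Cyp3a57, is given beside them for comparison. The genes were chosen by symbol with their read counts in both genotypes, and the difference between them, in view, so the differences between genotypes in these 8 genes are given as a description, with no p-value and no support drawn from them.

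CYP3A enzymes sit in the membrane of the endoplasmic reticulum, carry a heme, take electrons from cytochrome P450 reductase and oxidize steroids, bile acids and a wide range of drugs. In mouse liver, known regulators of their transcription include the nuclear receptors PXR (Nr1i2) and CAR (Nr1i3), which pair with RXR, and HNF4A. Several members are also set by sex through the pattern of growth hormone release: Cyp3a11 is the main form of adult liver in both sexes, whereas Cyp3a41 and Cyp3a44 are known as forms of female liver and Cyp3a16 as a form of fetal and newborn liver. Cyp3a25 is a form of liver and intestine, and Cyp3a13 is best known from intestine and other tissues.

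RNA-Seq was performed on livers of male C57BL/6 mice carrying floxed Mttp and a Villin-driven, tamoxifen-inducible Cre recombinase (Mttp f/f Villin Cre ER(T2)). Both groups thus shared the floxed alleles and the transgene. An age of 12 to 16 weeks is given for the mice fed the diet described below, and none at liver collection. Mttp codes for the microsomal triglyceride transfer protein, which loads lipid onto nascent lipoproteins, and the Villin promoter directs the deletion to the intestinal epithelium and not to the liver that was sequenced. Mttp-IKO mice received tamoxifen at 50 µg/g per day for 5 days, control mice received vehicle, and both were fed a methionine- and choline-deficient (MCD) diet for 3 weeks, begun 3 weeks after the injections, before livers were collected after a 4 h fast. Tamoxifen itself was therefore given to 1 group only and cannot be told apart from the deletion. Each genotype was represented by 3 pools of RNA from 3 to 4 mice each, so that each replicate stands for several mice, and the series description names 12 livers without saying whether for each genotype or in all. The pools are called control 1 to 3 and Mttp-IKO 1 to 3.

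The pools held 25271585 to 36238734 reads assigned to genes, and 3 reads, the level that a count of 0 still allows, amount to 0.0828 to 0.119 CPM, that is, counts relative to the library total (for counting error alone). Values below are CPM scaled by the trimmed mean of M values (TMM). Hepatic Mttp was 90.3, 185 and 175 CPM in the control pools and 145, 129 and 160 CPM in the Mttp-IKO pools, which overlapped, and a liver library does not check an intestinal deletion. Xist, which marks female cells, was at 0.421 to 1.51 CPM and the Y-linked Ddx3y at 36 to 67.8 CPM over the 6 pools. The summed level of 18 hepatocyte marker genes was 91160 to 129200 CPM in control pools and 152700 to 206100 CPM in Mttp-IKO pools, that of 12 stellate cell and fibroblast genes was 956 to 1767 against 487.8 to 537.3 CPM, and that of 16 macrophage genes was 982.6 to 1967 against 629.9 to 1063 CPM. In bulk liver, fewer cells of a type and less RNA per cell cannot be told apart. Mttp-IKO 3 stood apart from the other pools. In it, small RNA genes took 0.291% of the reads (1.92% to 3.51% in the other 5 pools) and coding genes under 1000 nt took 1.70% (3.64% to 3.86%).

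The members lie on chromosome 5 of the mouse genome (GRCm38). Cyp3a13 lies by itself at chr5:137892932-137921619 on the minus strand, between Pilrb2 and Gjc3, and shares its strand and part of its span with the annotated gene Gm15502. The other 7 lie in a cluster that runs from Cyp3a16 at chr5:145436309-145469723 (-) through Cyp3a41b at chr5:145558675-145584730 (-), Cyp3a41a at chr5:145694060-145720136 (-), Cyp3a44 at chr5:145773983-145805874 (-), Cyp3a11 at chr5:145854426-145879964 (-) and Cyp3a25 at chr5:145977194-146009618 (-) to Cyp3a59 at chr5:146079258-146113285 (+). Cyp3a57, at chr5:145345279-145390512 (+), lies at the other end of the cluster, and Zscan25 and Gm6309 are the nearest coding genes outside it. Each of the 9 genes has a coding transcript of 13 exons with a coding length of 1512 or 1515 nt.

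How alike the copies are decides how many reads can be assigned to each, because a read that fits several places was not counted. Cyp3a41a and Cyp3a41b differed at 2 of 1515 coding positions, an identity of 99.9%, and shared a coding run of 1179 nt without a difference. Cyp3a41a was 95.8% identical to Cyp3a44, 95.2% to Cyp3a11 and 92.7% to Cyp3a16. Cyp3a25 and Cyp3a59 formed a second closely related pair with 97.5%, whereas Cyp3a13 was 74.7% to 76.6% identical to the other members. The coding stretch around the first difference between Cyp3a41a and Cyp3a41b is shown for the 5 members most alike, to make plain how little tells them apart. Capitals mark bases that differ from Cyp3a41a, and the stretch lies within 1 exon (coding positions 90 to 149, GRCm38, transcripts of GENCODE M21).
Cyp3a41a, chr5:145717941-145718000 (-): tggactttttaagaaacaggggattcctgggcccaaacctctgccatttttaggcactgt
Cyp3a41b, chr5:145582531-145582590 (-): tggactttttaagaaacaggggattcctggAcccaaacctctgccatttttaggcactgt
Cyp3a44, chr5:145803680-145803739 (-): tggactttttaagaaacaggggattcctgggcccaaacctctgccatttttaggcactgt
Cyp3a16, chr5:145467483-145467542 (-): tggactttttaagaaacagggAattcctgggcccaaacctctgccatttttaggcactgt
Cyp3a11, chr5:145877654-145877713 (-): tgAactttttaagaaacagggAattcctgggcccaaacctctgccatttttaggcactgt

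In this stretch Cyp3a41b carried G120A relative to Cyp3a41a, with positions counted from 1 at the first coding base, and Cyp3a44 was identical to Cyp3a41a over all 60 bases. The stretch around the second difference, G336T, joins separate exons, so that the coordinates include an intron.
Cyp3a41a, chr5:145709112-145713526 (-): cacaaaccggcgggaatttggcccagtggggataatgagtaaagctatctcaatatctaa
Cyp3a41b, chr5:145573698-145578108 (-): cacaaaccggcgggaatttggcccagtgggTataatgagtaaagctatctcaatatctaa

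Cut into all windows of 100 nt, the transcripts of Cyp3a13, Cyp3a16 and Cyp3a11 held 100%, 99.9% and 99.7% of windows that were in no transcript of another gene, and those of Cyp3a44, Cyp3a59 and Cyp3a25 held 94.6%, 94.4% and 94%. For Cyp3a41a the share was 9.18% (180 of 1961 windows) and for Cyp3a41b 11.8% (231 of 1965). The length of the reads is not given in the sources used here. With windows of 50 nt the shares of Cyp3a41a and Cyp3a41b were 1.39% and 6.5%, and with 150 nt they were 17.1% and 17.3%, so at each length tried most reads of this pair would fit both copies. The counts of Cyp3a41a and Cyp3a41b are therefore uncertain as levels and rest on a small part of each transcript, and only annotated transcripts were searched, so copies elsewhere in the genome are not included.

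**Figure D1:**
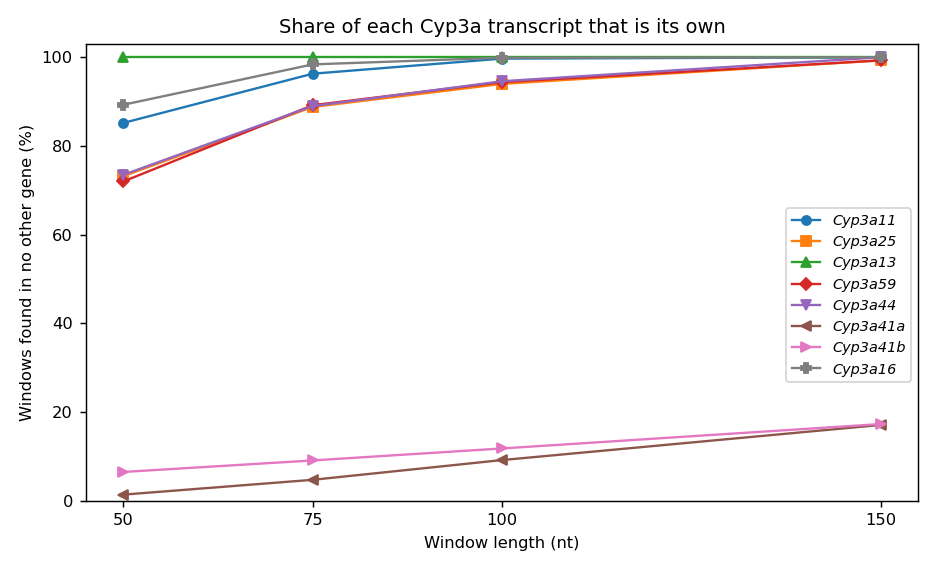
Share of windows of each Cyp3a transcript (y axis, percent) that were found in no transcript of another gene, by window length (x axis, nt; 50, 75, 100 and 150), with 1 line for each gene. Cyp3a41a and Cyp3a41b stayed at 17.3% or below at every length, and the other 6 genes were at 72% or above.

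Cyp3a11, whose enzyme is the most abundant CYP3A of adult mouse liver, was at 839, 630 and 772 CPM in the control pools and at 616, 654 and 968 CPM in the Mttp-IKO pools. The genotypes overlapped, with the lowest and the highest of the 6 values both in Mttp-IKO pools. The means were 747 ± 107 and 746 ± 193 CPM (SD, n = 3 pools), and the log2 fold change was -0.0015 ± 0.235 (SE). Its sign depended on the scaling: it was 0.07 when TMM was computed from genes of 1500 to 3000 nt and -0.30 when the hepatocyte marker list was used. The latter scaling moved the median of all genes to -0.29.

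Cyp3a25 was at 157, 198 and 180 CPM in the controls and at 162, 432 and 247 CPM in Mttp-IKO. Mttp-IKO 1 lay within the control range and Mttp-IKO 2 was the highest of all pools. The means were 179 ± 20.5 and 280.4 ± 138 CPM (SD, n = 3), a log2 fold change of 0.65 ± 0.331 that was 0.20 without Mttp-IKO 2. Its close copy Cyp3a59 followed it, with 16.5, 13.4 and 10.8 CPM in controls and 12.0, 29.1 and 18.5 CPM in Mttp-IKO and again the highest value in Mttp-IKO 2. The log2 fold change of Cyp3a59 was 0.55 ± 0.318 with overlapping genotypes and 0.17 without Mttp-IKO 2, and its reads amounted to 0.0598 to 0.105 of those of Cyp3a25 in every pool. Across the 6 pools the log2 CPM of the pair had a Pearson r of 0.87, and of 0.82 after the mean of each genotype was subtracted, over the same 6 libraries.

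Cyp3a13, the member that lies outside the cluster, was at 78.8, 51.3 and 61.6 CPM in the controls and at 60.5, 70.0 and 143 CPM in Mttp-IKO. Only Mttp-IKO 3, the pool with few reads on short genes, lay above the control range. The log2 fold change was 0.51 ± 0.333, and it was 0.03 without that pool. Gm15502 overlaps the gene on the same strand, and reads in the shared part may have been left uncounted.

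Cyp3a44 was at 25.5, 17.8 and 46.4 CPM in the controls and at 181, 123 and 285 CPM in Mttp-IKO. Every Mttp-IKO pool lay above every control pool, and the lowest of them was 2.65 times the highest control. The means were 29.9 ± 14.8 and 196.5 ± 82.4 CPM (SD, n = 3), a ratio of 6.57 and a log2 fold change of 2.72 ± 0.428. Of its 100 nt windows 94.6% are its own, and of its 50 nt windows 73.5%, with 11.5% of the latter shared with Cyp3a41a. At these lengths the values rest on most of the transcript.

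Cyp3a41a was counted with 22, 67 and 67 reads in the controls and 1551, 1478 and 327 reads in Mttp-IKO, that is 0.545, 1.86 and 2.09 CPM against 49.9, 50.6 and 13.7 CPM. All Mttp-IKO pools were above the controls, with the smallest value in Mttp-IKO 3, where Cyp3a44 had its largest. The ratio of means was 25.4 and the log2 fold change 4.68 ± 0.646. Of its near-identical copy Cyp3a41b there were 2, 3 and 13 reads in the controls and 281, 219 and 71 reads in Mttp-IKO. A pair of these control pools was at or under the 3 reads that a count of 0 allows, so its log2 fold change of 5.22 ± 0.728 depends on how such low counts are handled. Summed over pools, 571 reads in Mttp-IKO against 18 in controls gave a ratio of 40.9, with a 95% exact interval of 25.7 to 69.6 that covers counting error only.

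Cyp3a16 was at 1.41, 1.22 and 1.87 CPM in the controls and at 9.34, 4.25 and 2.64 CPM in Mttp-IKO. The groups did not overlap, although Mttp-IKO 3 was 1.41 times the highest control only. The log2 fold change was 1.85 ± 0.466. Cyp3a57 was at 0.730 ± 0.600 CPM in controls and 1.41 ± 0.505 CPM in Mttp-IKO (SD, n = 3), with overlapping pools.

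**Figure D2:**
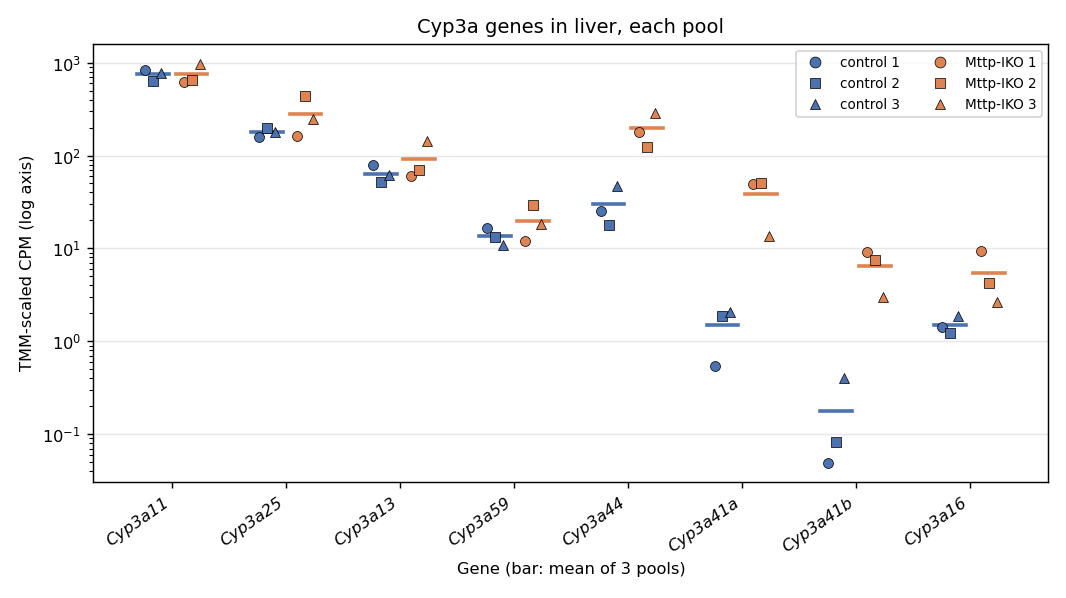
TMM-scaled CPM (y axis, log scale) of the 8 Cyp3a genes (x axis) in each of 3 control and 3 Mttp-IKO pools, with 1 symbol for each pool and a bar at the mean. Cyp3a11, Cyp3a25, Cyp3a13 and Cyp3a59 overlap between genotypes, whereas for Cyp3a44, Cyp3a41a, Cyp3a41b and Cyp3a16 every Mttp-IKO pool lies above every control pool.

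All 8 members passed the filter on low counts. In the edgeR quasi-likelihood fit over 17287 genes, 3 of them (Cyp3a41a, Cyp3a41b and Cyp3a44) had an adjusted p under the threshold of 0.05, all higher in Mttp-IKO, where the background of genes called higher was 0.920% and that of genes called lower 3.09%. The pools did not overlap for 4 of 8 members, all with Mttp-IKO above, where 14.6% of all genes had every Mttp-IKO pool above the controls. Nothing is read from these counts, because the same comparison had been seen when the genes were chosen. The calls depended on single pools: without control 1, Mttp-IKO 1 or Mttp-IKO 2 none of the 8 passed, and without control 3 only Cyp3a41b did, whereas without Mttp-IKO 3 Cyp3a16 passed as well. Over the 6 fits the log2 fold changes stayed between 4.26 and 5.09 for Cyp3a41a, 4.74 and 6.54 for Cyp3a41b and 2.35 and 3.15 for Cyp3a44. Scaled to the hepatocyte marker genes, whose sum was higher in Mttp-IKO pools, the log2 fold changes of Cyp3a44, Cyp3a41a and Cyp3a41b were 2.44, 4.4 and 4.92, and the part of the mix of cell types in them was not tested further.

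**Figure D3:**
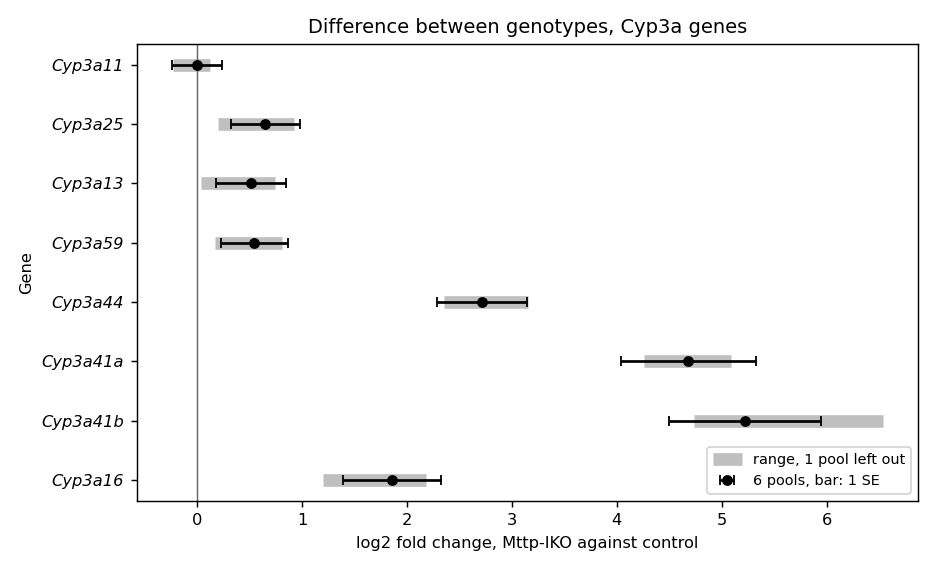
Log2 fold change of each Cyp3a gene, Mttp-IKO against control (x axis), with a point and a bar of 1 SE from the 6 pools and a gray band for the range over the 6 fits without 1 of the pools. The band of Cyp3a11 spans 0 (-0.23 to 0.12), and those of Cyp3a44, Cyp3a41a, Cyp3a41b and Cyp3a16 lie above 1.

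Levels can be compared between genes only per length. Per kilobase of the gene length in the files, the order in controls was Cyp3a11 (319 ± 45.5 CPM per kb), Cyp3a25 (85.7 ± 9.84), Cyp3a13 (21.6 ± 4.70), Cyp3a44 (15.2 ± 7.56), Cyp3a59 (6.80 ± 1.44), Cyp3a16 (0.867 ± 0.194), Cyp3a41a (0.730 ± 0.406) and Cyp3a41b (0.0874 ± 0.0957; SD, n = 3 pools throughout). Cyp3a13 and Cyp3a44, and likewise Cyp3a16 and Cyp3a41a, lay within their spread of each other. In Mttp-IKO, Cyp3a11 (318 ± 82.5 CPM per kb) was again first, followed by Cyp3a25 (135 ± 66.3) and Cyp3a44 (100.2 ± 42.0), which were within their spread of each other, then Cyp3a13 (30.9 ± 15.3), Cyp3a41a (18.6 ± 10.3), Cyp3a59 (9.93 ± 4.30), Cyp3a41b (3.17 ± 1.54) and Cyp3a16 (3.13 ± 2.02). Cyp3a13 and Cyp3a41a overlapped in their spread, as did Cyp3a41a and Cyp3a59 and the last 2.

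The place of Cyp3a41a in this order turned on how the lost reads are treated. Divided by its own 100 nt windows rather than by its length, its level in Mttp-IKO was 211.6 CPM per 1000 windows, which was below Cyp3a11 (333.4) alone and above Cyp3a25 (157) and Cyp3a44 (111.5), whereas per length it ranked at 5. With 50 nt windows it ranked at 1 with 1360 and with 150 nt windows at 3 with 116.5, so the rank depends on a read length that is not given. Cyp3a41b had more windows of its own than Cyp3a41a at every length, and yet Cyp3a41a had 4.61 to 6.75 times its reads in the Mttp-IKO pools. The reads of Cyp3a41a amounted to 0.276 and 0.412 of those of Cyp3a44 in Mttp-IKO 1 and 2, but to 0.048 in Mttp-IKO 3, close to the 0.045 of control 3, with 0.0214 and 0.104 in the other control pools. Whether reads of Cyp3a44 with an error were assigned to Cyp3a41a was not tested.

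Summed over the 8 members, the family was at 1119, 914 and 1075 CPM in the controls and at 1100.0, 1371 and 1681 CPM in Mttp-IKO. Mttp-IKO 1 lay within the control range, and the means were 1036 ± 108 and 1384 ± 291 CPM, a ratio of 1.34. The mix of members differed as well. Cyp3a11 made up 75%, 68.9% and 71.8% of the members' reads in controls and 56.0%, 47.7% and 57.6% in Mttp-IKO. Cyp3a16, Cyp3a41a, Cyp3a41b and Cyp3a44 together made up 2.46%, 2.29% and 4.73% in controls and 22.7%, 13.5% and 18.1% in Mttp-IKO, their summed level going from 33.1 ± 15.7 to 246.5 ± 59.8 CPM. The reads that the Cyp3a41 pair lost to each other are missing from these shares in both genotypes.

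**Figure D4:**
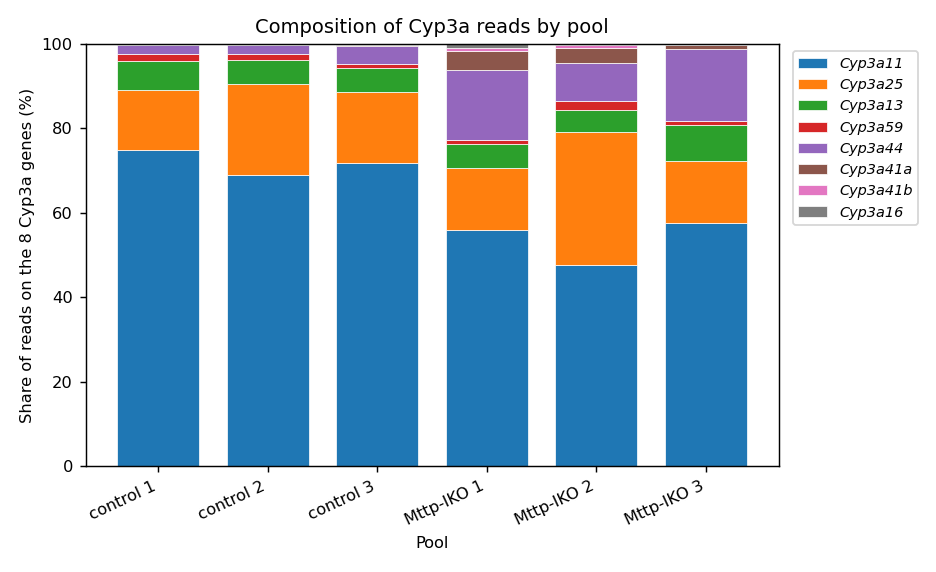
Share of the reads on the 8 Cyp3a genes (y axis, percent, stacked to 100) taken by each gene in each pool (x axis). The Cyp3a11 segment is 68.9% to 75% in controls and 47.7% to 57.6% in Mttp-IKO, and the Cyp3a44 and Cyp3a41a segments are visible mainly in Mttp-IKO pools.

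The 4 members with every Mttp-IKO pool above the controls are neighbors in the cluster, in the order Cyp3a16, Cyp3a41b, Cyp3a41a and Cyp3a44, with Cyp3a11 next to Cyp3a44. Their upstream sequences were also alike. Over the 250 bases before the transcription start (RefSeq, GRCm38.p6; all 9 genes matched by symbol), Cyp3a41a was 99.6% identical to Cyp3a41b, 94.4% to Cyp3a44 and 93.9% to Cyp3a16, but 80.9% to Cyp3a11 and 47.7% to 50.4% to Cyp3a25, Cyp3a59 and Cyp3a13. Cyp3a25 and Cyp3a59 were 95.6% identical to each other. The 120 bases before the start are shown for these 4 genes and for Cyp3a11 and Cyp3a25. The 4 genes were grouped by their difference between genotypes. Sequences this alike hold most motifs in common, so the 4 genes are not separate cases. Whether these bases bear on the difference between genotypes was not tested. For Cyp3a11 the RefSeq start lies inside the span counted for the gene, which ends at 145879964. Most of its 120 bases therefore lie within that span. Capitals mark CAAAGTCCA, a core bound by HNF4A, and ATCAAT, a core of sites of the cut-homeodomain factors HNF6 and CUX2.
Cyp3a16, chr5:145469724-145469843 (-): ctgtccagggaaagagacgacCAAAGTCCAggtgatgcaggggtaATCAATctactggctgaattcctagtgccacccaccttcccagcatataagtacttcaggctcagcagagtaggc
Cyp3a41b, chr5:145584731-145584850 (-): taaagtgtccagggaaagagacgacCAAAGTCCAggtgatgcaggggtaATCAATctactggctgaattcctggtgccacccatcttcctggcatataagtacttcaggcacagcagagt
Cyp3a41a, chr5:145720137-145720256 (-): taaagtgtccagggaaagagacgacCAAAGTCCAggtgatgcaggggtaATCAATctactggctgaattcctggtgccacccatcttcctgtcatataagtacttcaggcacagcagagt
Cyp3a44, chr5:145805875-145805994 (-): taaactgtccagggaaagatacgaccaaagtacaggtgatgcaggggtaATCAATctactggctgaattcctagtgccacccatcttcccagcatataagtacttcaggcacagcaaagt
Cyp3a11, chr5:145879855-145879974 (-): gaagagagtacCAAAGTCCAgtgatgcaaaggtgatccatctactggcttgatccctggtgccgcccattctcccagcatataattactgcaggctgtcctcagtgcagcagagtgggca
Cyp3a25, chr5:146009619-146009738 (-): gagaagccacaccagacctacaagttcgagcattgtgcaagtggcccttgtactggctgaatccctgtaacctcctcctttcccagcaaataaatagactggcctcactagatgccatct

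Letters were searched on both strands over the 250 bases before the start, in the 9 genes and in all promoters alike. The motifs were picked after the sequences had been seen. ATCAAT was found in Cyp3a16, Cyp3a41a, Cyp3a41b and Cyp3a44, between 75 and 66 bases before the start, and at another place in Cyp3a57, and was held by 6.97% of all 27025 promoters. It was not in Cyp3a11, Cyp3a13, Cyp3a25 or Cyp3a59. CAAAGTCCA was found in Cyp3a11, Cyp3a16, Cyp3a41a and Cyp3a41b and in 0.381% of all promoters. AGTTCA, part of the sites of nuclear receptors such as PXR, was in Cyp3a11, Cyp3a41a and Cyp3a41b (11.9% of promoters), and AGGTCA was in Cyp3a11, Cyp3a25, Cyp3a44, Cyp3a59 and Cyp3a57 (13.8%). TTCNNNGAA, the site of STAT5, and TTATGNAA, a site of the PAR bZIP factors, were in none of the 9 windows (7.18% and 3.23% of promoters). These are matches of letters and do not show that a factor bound.

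Pathway genes were taken from lists and tested in the same fit. Among 26 xenobiotic receptors and hepatocyte transcription factors, 1 rose and none fell, and the median log2 fold change was 0.40 beside 0.01 over all genes tested, of which 4.01% were called in either direction. With scaling to the hepatocyte markers the median of the list was 0.09, beside -0.29 over all genes, and without Mttp-IKO 3 it was 0.24. The medians given below with the hepatocyte scaling hold the same shift of all genes. The gene that rose was Nr0b2, the repressor SHP, with 25.1, 21.1 and 17.2 CPM in controls and 54.5, 45.8 and 33.1 CPM in Mttp-IKO (log2 fold change 1.07, edgeR adjusted p = 0.0435), a call kept in only 1 of the 6 fits with a pool left out, the one without Mttp-IKO 3. The call was also lost with total counts, with scaling to the hepatocyte markers and with limma-voom (adjusted p = 0.0702, 0.108 and 0.0556). Hnf4a was at 563, 685 and 599.6 CPM against 867, 1201 and 1317 CPM and did not pass (0.87, adjusted p = 0.0664). The receptors Nr1i2 (73.6 ± 1.56 and 97.0 ± 11.7 CPM, SD, n = 3), Nr1i3 (99.0 ± 30.9 and 160 ± 52.5 CPM) and Rxra (532 ± 23.0 and 680 ± 155 CPM) had log2 fold changes of 0.40, 0.70 and 0.35 and did not pass, with edgeR adjusted p = 0.171, 0.225 and 0.349.

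Of 15 regulators of the growth hormone and sex pattern, 1 rose and none fell, with a median of 0.44 that was 0.14 with scaling to the hepatocyte markers and 0.15 without Mttp-IKO 3. Cux2, a transcription factor of female liver, was at 4.36, 7.42 and 6.99 CPM in controls and at 31.1, 88.7 and 63.7 CPM in Mttp-IKO. Its groups lay far apart (log2 fold change 3.29 ± 0.401, adjusted p = 0.0159), and the call was lost without control 1, control 3 or Mttp-IKO 2. Stat5b, which carries the growth hormone signal, differed by less than its spread, with 68.3 ± 1.24 against 68.7 ± 5.68 CPM (SD, n = 3) and a log2 fold change whose sign changed with the scaling (0.0091, adjusted p = 0.977).

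The partners that CYP3A enzymes need did not pass the test. None of 7 microsomal electron transfer genes and none of 14 heme genes was called by edgeR, with 2 and 1 of them at an unadjusted p under 0.05 and 1 and 0 called by DESeq2. Por, the reductase that passes electrons to P450 enzymes, was at 978, 1017 and 1120.0 CPM in controls and at 1172, 1807 and 1945 CPM in Mttp-IKO, above them in every pool (log2 fold change 0.66, adjusted p = 0.152). Alas1, the first enzyme of heme synthesis, was at 809.6, 889.7 and 991 CPM against 465, 831 and 922 CPM (-0.28, adjusted p = 0.577).

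Of 32 other genes known as targets of PXR or CAR, 4 rose and 5 fell, with a median of 0.07 that was -0.21 with scaling to the hepatocyte markers. Cyp2c29 rose from 32.6, 107 and 50.9 CPM to 216, 295 and 338 CPM (log2 fold change 2.15, adjusted p = 0.0369), and Cyp2b13 from 3.09 ± 0.969 to 27.4 ± 13.9 CPM (SD, n = 3; 3.15, edgeR adjusted p = 0.0181). Gsta2, a glutathione transferase, fell from 33.4, 17.6 and 23.0 CPM to 5.31, 5.38 and 3.48 CPM (-2.38, adjusted p = 0.0159), and Cd36, a fatty acid transporter that macrophages and fat cells also express, fell from 254.5 ± 74.9 to 102.6 ± 15.5 CPM (-1.31, edgeR adjusted p = 0.0358). Cyp2b10, the gene most used as a readout of CAR, was at 0.842, 2.30 and 1.97 CPM against 5.35, 2.23 and 41.8 CPM, overlapped between genotypes and was carried by Mttp-IKO 3 (3.27, adjusted p = 0.113, and 1.16 without that pool).

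Of 29 genes outside Cyp3a known as female-biased in liver, 10 rose and 3 fell, with a median log2 fold change of 0.98. A female-biased list had been examined in these data before, so its direction is not independent evidence. Cyp2c69 was at 0.149, 0.305 and 0.187 CPM in controls and at 6.96, 4.66 and 4.90 CPM in Mttp-IKO (4.67, adjusted p = 0.00656), and Cux2 and Cyp2b13 also belong to this list. Ntrk2, a neurotrophin receptor gene that the list also holds, fell from 23.7, 11.1 and 16.6 CPM to 0.419, 0.274 and 1.09 CPM (-4.89, adjusted p = 0.0111). The list thus did not move in 1 direction, and its Cd36 and Atp6v0d2, which fell as well, are also genes of macrophages, whose marker sums overlapped between genotypes (982.6 to 1967 CPM in controls and 629.9 to 1063 CPM in Mttp-IKO), and the part of such cells was not tested.

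Of 39 male-biased genes, 2 rose and 1 fell, with a median of 0.17 that turned to -0.67 without Mttp-IKO 3, where 10 were called, and to -0.06 with scaling to the hepatocyte markers. The genes that rose with all pools were Cyp2d9, from 182 ± 51.9 to 403.5 ± 24.3 CPM (SD, n = 3; 1.15, edgeR adjusted p = 0.0389), and Ces4a, from 0.880 ± 0.0755 to 2.97 ± 0.830 CPM (SD, n = 3; 1.75, edgeR adjusted p = 0.0293). Nat8 fell from 17.3, 20.5 and 21.3 CPM to 6.73, 10.2 and 4.78 CPM (-1.44, adjusted p = 0.0340). Among 20 genes of inflammation, which lowers liver P450 genes, 9 were higher and 11 lower. The list holds cytokines, receptors, signaling genes and acute phase genes. Its median log2 fold change was -0.12, and -0.42 with scaling to the hepatocyte markers. Il1r1 alone passed, rising from 58.5 ± 8.69 to 165.6 ± 31.0 CPM (SD, n = 3, log2 fold change 1.5, edgeR adjusted p = 0.0178). All of the calls of named genes in these lists were lost without Mttp-IKO 2, when 0 of 17873 genes passed in edgeR and 3221 had an unadjusted p under 0.05. Those of Cyp2c69 and Ntrk2 held in the other 5 fits with a pool left out, and that of Il1r1 was lost without control 1 or control 3 as well. Those of Cyp2b13, Gsta2 and Cyp2d9 were lost without control 1, control 3 or Mttp-IKO 1, those of Cyp2c29 and Cd36 held only without control 2, and those of Ces4a and Nat8 held only without Mttp-IKO 3. None of these genes changed direction in the 19 alternatives.

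**Figure D5:**
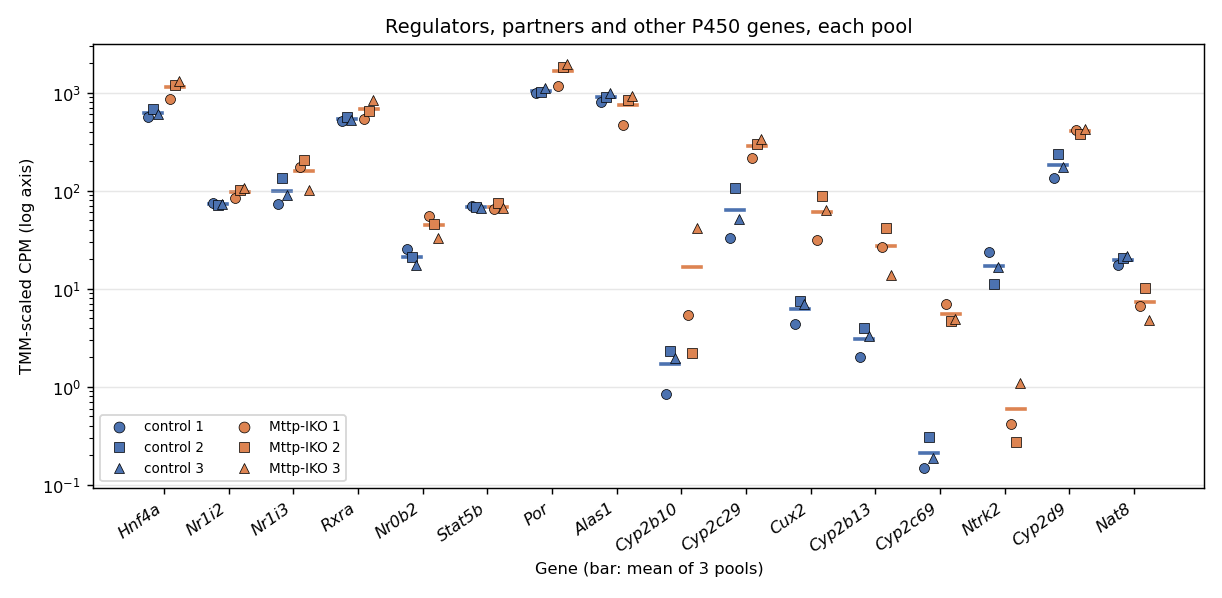
TMM-scaled CPM (y axis, log scale) of regulators, partners and other liver genes (x axis) in each of 3 control and 3 Mttp-IKO pools, with 1 symbol for each pool and a bar at the mean. Cux2, Cyp2b13 and Cyp2c69 are higher and Ntrk2 is lower in every Mttp-IKO pool, Stat5b overlaps, and Cyp2b10 is high in Mttp-IKO 3 only.

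Members also differed in how they varied from pool to pool. Cyp3a41a and Cyp3a41b had an r of 0.98 over the 6 pools and 0.82 with the genotype means subtracted, and Cyp3a11 and Cyp3a13 had 0.86 and 0.98. Cyp3a44 and Cyp3a41a, close in sequence, had 0.83 over all pools and -0.31 with the genotype means subtracted. The points of each pair share library, depth and composition. Among genes with an average log2 CPM of at least 1, those most like Cyp3a44 over the 6 pools were Crebl2, Tor1b and Treh (r = 0.985 for each), those most like Cyp3a41a were Ddx21, Wdr35 and Catsper2 (0.997, 0.995 and 0.995), and those most like Cyp3a11 were Nampt, Numbl and Slc44a1 (0.989, 0.988 and 0.988). With the genotype means subtracted, 3 of the 24 genes listed in this way for the 8 members were listed again.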

How the data were processed

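Liver RNA was sequenced in 3 control and 3 Mttp-IKO pools after depletion of ribosomal RNA. The authors aligned reads with STAR 2.5.1a to the Ensembl release 76 annotation (GRCm38) and deposited counts of uniquely aligned, unambiguous reads per gene from featureCounts 1.4.6-p5. The deposited CPM and RPKM values followed from these counts, and the counts alone were tested. Read length and strand setting are not given in the sources used here. The series table held 40481 genes after 276 repeated lines were dropped.

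Genes were kept with filterByExpr (minimum count 10, total 15), scaled by TMM, and compared with edgeR 4.0.16 (glmQLFit and glmQLFTest, Benjamini-Hochberg over 17287 genes, threshold 0.05), an analysis tested on simulated data. The Cyp3a members and all lists were chosen with earlier results of these data known. Genes named were the members, Cyp3a57, up to 4 called genes of each list with the largest change and average log2 CPM of at least 0, 9 set regulators and targets, and the 3 genes most like a member. Atp6v0d2, which fell outside this rule, and the genes that check sample identity were named in addition. P-values measure the spread between pools of mice. Coding sequences were aligned with mafft 7.526, and windows were searched in 141767 GENCODE M21 transcripts. Alternatives were other scalings, limma-voom 3.58.1, DESeq2 1.42.0, other filters and thresholds, robust dispersion, a replicate block, left-out pools, window lengths and transcript lengths. Figures were drawn with matplotlib.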

Additional observations from a re-analysis of the deposited data

How the results depend on the processing

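The log2 fold changes of Cyp3a13, Cyp3a16, Cyp3a25, Cyp3a41a, Cyp3a41b, Cyp3a44 and Cyp3a59 kept their sign in all 19 alternatives and that of Cyp3a11 in 12. Leaving out 1 pool gave 0 to 892 genes called among all genes, against 694 with all pools, and 0 to 4 of the members. In the lists the left-out pools gave 0 to 3 xenobiotic receptors and transcription factors, 0 to 1 growth hormone regulators, 0 to 8 PXR and CAR targets, 0 to 14 female-biased, 0 to 10 male-biased and 0 to 4 inflammatory genes. The cause was not tested, although fewer pools alone lower the number of calls.

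Scaled to hepatocyte markers, 1310 genes were called, and the family total had a log2 ratio of 0.11 in place of 0.42. The lists then gave 0 xenobiotic receptors or transcription factors, 1 heme gene and 4 inflammatory genes. With total counts, 0 xenobiotic receptors or transcription factors were called. The DESeq2 Wald test called 1995 genes, among them Cyp3a16, Hnf4a, Por and Cyp2b10. Of the lists it called 8 xenobiotic receptors and transcription factors, 2 growth hormone regulators, 1 microsomal partner, 6 male-biased and 5 inflammatory genes. It also called 19 female-biased genes and 13 PXR and CAR targets, against 13 and 9 in the main fit. The limma-voom fit called 428 genes, with 0 xenobiotic receptors or transcription factors, 12 female-biased genes and 6 PXR and CAR targets. Without a filter, 2 xenobiotic receptors or transcription factors, 2 inflammatory genes, 16 female-biased genes and 10 PXR and CAR targets were called. At an adjusted p of 0.1 there were 1659 genes, with 5 xenobiotic receptors or transcription factors and 4 inflammatory genes. The same threshold gave 18 female-biased genes and 10 PXR and CAR targets. The receptors Nr1i2, Nr1i3 and Rxra were called in none of the 19 alternatives. The share of calls that were higher in Mttp-IKO was 22.9%, against 11.1% with total counts, 6.95% with hepatocyte scaling and 32.9% with DESeq2, and total counts and hepatocyte scaling moved the median of all genes to -0.17 and -0.29 on the log2 scale.

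The sample titles restart their numbers in each genotype, whereas the labels of the count columns number the pools straight through. The numbers name pools and were not used as pairing in the main fit. By title, the deviations of same-numbered pools correlated at 0.191, 0.147 and 0.0237, and each control pool correlated best with its own number. A fit with the replicate block called 595 genes, 3 members, 2 xenobiotic receptors or transcription factors and 5 male-biased genes. In it Cd36 did not pass (-1.28, edgeR adjusted p = 0.0615). The sign of Stat5b turned in several settings, with log2 fold changes of -0.017 with upper quartile scaling, -0.174 with total counts, -0.297 with hepatocyte scaling, -0.018 without a filter, and -0.061 to 0.05 over the fits with a pool left out. Scaling from genes of 1500 to 3000 nt, chosen after the data had been seen, called 580 genes and the same 3 members. Depth limits Cyp3a41b in controls, at 2 to 13 reads.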

Other observations

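Cell type lists gave the following background for the liver samples. Stellate cell and fibroblast genes fell for 8 of 12 and rose for none, with a median log2 fold change of -1.93, among them Col1a1, from 229 ± 122 to 17.3 ± 4.36 CPM (SD, n = 3, edgeR adjusted p = 0.0159). Of 16 macrophage genes 4 fell and 1 rose (median -1.10), and Trem2 fell from 29.5 ± 13.3 to 4.79 ± 2.22 CPM (SD, n = 3, edgeR adjusted p = 0.0293), whereas Timd4, a marker of resident Kupffer cells, rose from 4.73 ± 0.416 to 10.6 ± 3.15 CPM (SD, n = 3, edgeR adjusted p = 0.0425). Of 18 hepatocyte genes 1 rose, of 16 periportal genes 1 fell and of 15 pericentral genes 0 passed in edgeR (5 at an unadjusted p under 0.05), with medians of 0.30, 0.56 and -0.10. These genes were picked after their values were seen. The small intestine list had 1 gene at 0 in every pool, Defa24, and sums of 168.4 to 252.3 CPM in controls and 185.5 to 208.1 CPM in Mttp-IKO, which include hepatic Mttp. The striated muscle sum reached 1056 CPM in control 2 and was at most 8.28 CPM in Mttp-IKO pools.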
